A study of Rattus norvegicus with 98 samples.

Results

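Prostaglandin metabolism is described here through 7 genes, Ptgs2, Ptgs1, Ptges, Pla2g4a, Hpgd, Ptger4 and Ptgds, in the nasal epithelium of rats that met formaldehyde. The genes were chosen with earlier results of these data known, and every probe set that the array annotation assigns to 1 of them was taken. These were 7 of the 14217 genes on the array with a symbol of their own, and 10 of the 31042 probe sets tested, with a pair each for Ptgs1, Ptges and Hpgd. Where a gene had a pair, the brighter probe set over all arrays stands for it and the dimmer one is given beside it. Levels are log2 array signals, which compare rats within a probe set and not 1 gene with another.

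Male F344/NCrl rats, 8 weeks old, each gave 1 array, 98 in all, so every replicate was a separate animal. The exposed groups of the later array set (set 2, 16 arrays) had inhaled 15 ppm formaldehyde, against rats that inhaled air, or had received 40 ul of 400 mM formaldehyde into each nostril, against rats given the same volume of water. All of these were collected at 6 h. Array set 1 (82 arrays) held rats in whole-body chambers with air, 0.7, 2 or 6 ppm, in daily exposures of 6 h with 5 such days a week, whose cells were taken at times from 6 h and 24 h to 5, 8 and 19 days. Of the 24 groups, 22 had 4 rats, and the 2 ppm group at 5 days and the air group at 8 days had 5. The rats carried no transgene, and the labels name the cells as transitional with some respiratory epithelium, freed by proteases from the lateral meatus and nasoturbinate.

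Prostaglandins are lipid signals made where they act. Cytosolic phospholipase A2 (Pla2g4a) frees arachidonic acid from membranes, a cyclooxygenase (the constitutive Ptgs1 or the inducible Ptgs2) turns it into prostaglandin H2, and terminal synthases make the signal from that, prostaglandin E2 by Ptges and prostaglandin D2 by Ptgds. Ptger4 is a receptor for prostaglandin E2, and Hpgd is the dehydrogenase that inactivates it. In airway epithelium and in the leukocytes that enter it, Ptgs2 is a well known early response gene of irritation and inflammation.

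Ptgs2 and Pla2g4a are neighbours on rat chromosome 13, with 0 other protein-coding genes between them, and Hpgd lies on chromosome 16. The stretches around the starts of these 3 genes are shown because they are the members whose RNA passed the test below. Each runs 5′ to 3′ on the gene's own strand over 300 bases, 250 before the start and 50 after it (RefSeq, GRCr8): chr13:64713813-64714112 on the plus strand for Ptgs2, chr13:64572303-64572602 on the minus strand for Pla2g4a and chr16:39034782-39035081 on the minus strand for Hpgd. Capitals mark the motifs named after the sequences.
Ptgs2: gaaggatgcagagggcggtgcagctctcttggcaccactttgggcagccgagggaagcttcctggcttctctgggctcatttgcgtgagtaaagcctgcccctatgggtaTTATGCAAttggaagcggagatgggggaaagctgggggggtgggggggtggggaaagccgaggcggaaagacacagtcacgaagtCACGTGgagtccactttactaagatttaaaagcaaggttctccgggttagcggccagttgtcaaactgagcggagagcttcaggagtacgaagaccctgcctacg
Pla2g4a: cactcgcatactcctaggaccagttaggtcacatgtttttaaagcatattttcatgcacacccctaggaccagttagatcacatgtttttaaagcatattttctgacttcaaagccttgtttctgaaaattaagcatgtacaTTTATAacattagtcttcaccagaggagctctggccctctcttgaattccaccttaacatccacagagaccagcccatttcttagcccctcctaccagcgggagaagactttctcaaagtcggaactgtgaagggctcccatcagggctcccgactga
Hpgd: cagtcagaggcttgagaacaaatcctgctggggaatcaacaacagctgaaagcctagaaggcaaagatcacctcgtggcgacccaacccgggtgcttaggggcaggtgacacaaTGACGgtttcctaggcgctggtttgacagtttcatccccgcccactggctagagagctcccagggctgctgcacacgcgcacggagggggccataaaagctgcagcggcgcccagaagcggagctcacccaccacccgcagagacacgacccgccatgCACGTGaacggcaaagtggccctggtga
Motifs known from inducible promoters were searched on both strands in these windows. The Ptgs2 window held a C/EBP site (TTNNGCAA) that began 140 bases before the start and an E-box (CACGTG) that began 55 bases before it. C/EBP sites of this form were in 10.6% of all 33469 rat windows and E-boxes in 6.42%. The Hpgd window held the core of a cyclic AMP response element (TGACG) 136 bases before the start, found in 21.2% of all windows, and an E-box 23 bases after it. The Pla2g4a window held a TATA box (TATAAA, read here on the other strand) 108 bases before the start, found in 14.2% of windows. No AP-1 site (TGANTCA, 7.33% of windows) and no NF-kB site (4.18% of windows) was in any of the 7 members' windows. A match of letters is a description and says nothing of what binds there.

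The members varied to different extents among the rats. Ptgs2 ran from 5.34, in 0.7 ppm rat 136 at 24 h and in air rat 321 of set 2, to 10.63 in an instilled rat, and differences between groups made up 68.8% of its variance over the 98 rats. Its spread within groups, an SD of 0.74, was also the widest of the 7 genes. The share of variance between groups was 60.6% for Pla2g4a, 57.7% for Ptges, 52.8% for Ptgs1, 51.9% for Hpgd, 44.5% for Ptgds and 32.0% for Ptger4. The Ptger4 probe set and the dimmer Ptgs1 probe set averaged 4.56 and 4.92, and no group mean of either reached 6, so a small change of these could be missed. Within groups, the deviations of the probe set pair correlated at 0.91 for Ptges and 0.89 for Hpgd, and at 0.43 for Ptgs1, over 98 rats.

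Markers of several cell types gave signal in the tissue behind these values, each level being that of its own probe set. The general epithelial markers Epcam and Krt8 and the basal marker Krt5 had mean log2 signals of 12.22, 11.98 and 12.02. Omp, the marker of olfactory neurons, averaged 11.96 although the labels say that olfactory epithelium was discarded, and the stromal gene Col1a1 averaged 13.14. Of the 7 mast cell markers 6 averaged between 3.47 and 5.06, and Hdc averaged 8.35. RNA integrity numbers, given for 85 arrays, lay between 7.2 and 8.8. Since the RNA came from many cells, fewer cells of a type and less RNA per cell cannot be told apart.

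After 6 h of 15 ppm formaldehyde, Ptgs2 rose 6.79-fold, while Pla2g4a fell by 1.02 and Hpgd by 0.59 on the log2 scale. Ptgs2 measured 8.43, 8.45, 8.79 and 9.02 in the 15 ppm rats, against 5.34, 5.47, 5.90 and 6.94 in the air rats of the same array set. Every 15 ppm rat lay above every air rat, and the air rats spread more widely (SD 0.72) than the exposed ones (SD 0.29). The difference was 2.76 ± 0.52 (log2, SE, n = 4 each, limma adjusted p = 7.5e-05), with a 95% interval from 1.74 to 3.79. The exact permutation p was 0.0286, the smallest that 4 against 4 rats allow, as for every comparison of 4 with 4 whose groups lay apart.

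**Figure D1:**
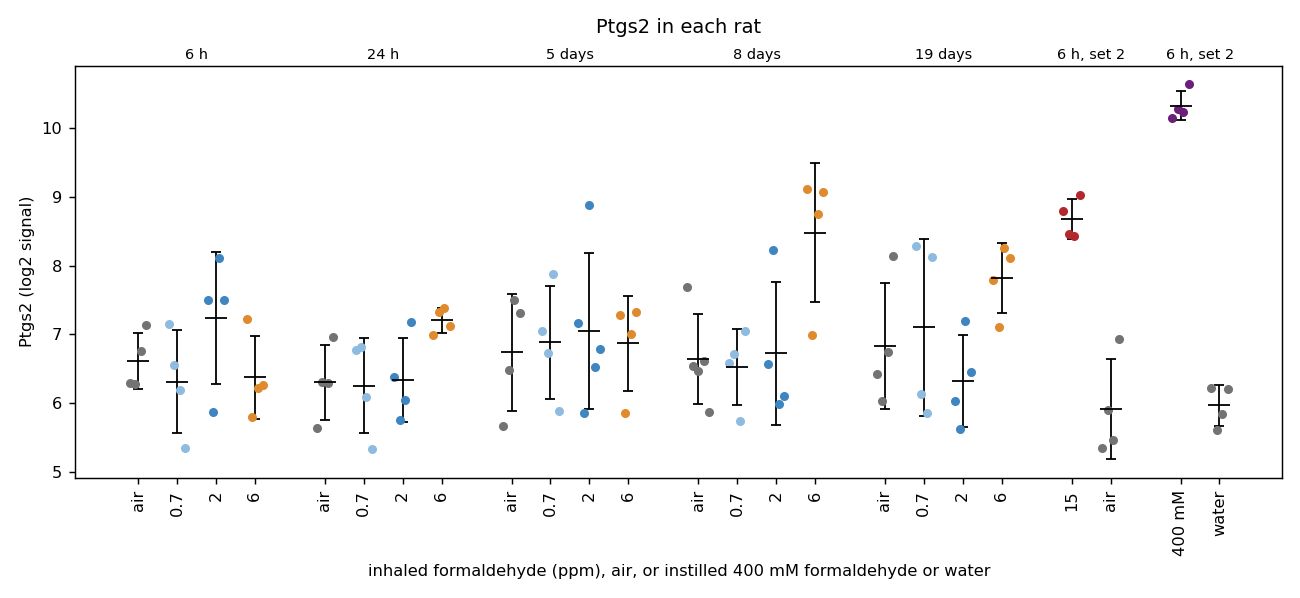
Ptgs2 log2 signal in each of the 98 rats, by group: dots are rats, dashes are group means and bars are the SD. The 4 instilled rats sit between 10.15 and 10.63 and the 4 rats of 15 ppm between 8.43 and 9.02, while the 5 air groups of array set 1 have means between 6.30 and 6.83.

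Pla2g4a, the enzyme at the head of the pathway, moved the other way. It measured 7.64, 7.86, 8.07 and 8.07 in the 15 ppm rats, against 8.83, 8.91, 8.92 and 9.06 in the air rats. Every 15 ppm rat lay below every air rat, and the difference was -1.02 ± 0.19 (SE, n = 4 each, limma adjusted p = 5.7e-05). Hpgd, which removes prostaglandins, measured 9.35, 9.58, 9.68 and 9.84 in the 15 ppm rats, against 10.16, 10.16, 10.25 and 10.25 in the air rats. Its difference was -0.59 ± 0.18 (SE, limma adjusted p = 0.022), and its other probe set gave -0.65 ± 0.18 (adjusted p = 0.012). The Hpgd call on the main probe set rested on each of 4 rats: the limma adjusted p was 0.11 without 15 ppm rat 341, 0.059 without 15 ppm rat 342, and 0.057 and 0.056 without air rats 322 and 323. Without rat 341 neither Hpgd probe set passed, leaving 2 member probe sets called.

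The remaining 4 genes did not pass the test at 15 ppm. Ptges, which makes prostaglandin E2 from the cyclooxygenase product, averaged 8.79 ± 0.19 in the 15 ppm rats and 9.10 ± 0.25 in the air rats (SD, n = 4 each; difference -0.32, limma adjusted p = 0.44). Ptgs1 differed by 0.04 (95% interval from -0.46 to 0.53) on its main probe set and by -0.27 on the other. Ptger4 differed by 0.12 and Ptgds by 0.04. In all, 1 of the 10 member probe sets rose and 3 fell, where 4.32% of all probe sets tested rose and 4.17% fell. The groups did not overlap for 4 of 10 member probe sets, against 16.3% of all.

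Markers of neutrophils, leukocytes that can express Ptgs2 themselves, moved with these results. Of the 6 measured markers 4 passed upward at 15 ppm (S100a8, S100a9, Cxcr2 and Csf3r), with a median log2 change of 1.30. Mmp9 and Il1r2 did not pass. The summed linear signal of the neutrophil markers was 3758 to 4577 in the 15 ppm rats, against 820.7 to 1409 in the air rats. Such linear sums follow their brightest markers, here S100a9 and S100a8 (means of 11.40 and 10.21 in the 15 ppm rats). Of 7 macrophage and monocyte markers 1 passed upward (Lyz2), and summed signals were 7427 to 9168 in the 15 ppm rats, against 5519 to 6860 in the air rats. Lyz2, with a mean of 12.64 in the 15 ppm rats, was also the brightest of these 7 and weighs most in their sum. Other cell types moved too: the general epithelial keratins Krt8 and Krt18 rose by 0.34 and 0.33, and the summed signal of the 5 general epithelial markers was 18100 to 20980 in the 15 ppm rats, against 15990 to 17200 in the air rats. Summed tuft cell signal was 266.7 to 298.2 in the 15 ppm rats, against 311.8 to 375.2 in the air rats, with 0 of 4 markers called in limma (1 with an unadjusted p under 0.05). The sums of the other 6 cell types overlapped. The part of all these markers in the member results was not tested. RNA integrity numbers were 7.7 to 8.2 in the 15 ppm rats and 7.3 to 7.8 in the air rats, and with that number as a covariate the Ptgs2 difference was 2.55 (limma adjusted p = 0.00054).

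Instilled formaldehyde gave the highest Ptgs2 signal of the study. Ptgs2 measured 10.15, 10.24, 10.28 and 10.63 in the instilled rats, against 5.61, 5.84, 6.20 and 6.22 in rats given water. The instilled rats lay close together (SD 0.21) and far above every water rat. The difference was 4.36 ± 0.52 (SE, n = 4 each, limma adjusted p = 2.1e-10), 20.5-fold. Hpgd was lower again, at 8.58, 9.23, 9.27 and 9.30 in the instilled rats, against 10.01, 10.01, 10.05 and 10.27 in the water rats. It fell by 0.99 ± 0.18 (SE, limma adjusted p = 1.1e-05), and the other probe set fell by 0.93 (adjusted p = 3.4e-05).

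Pla2g4a measured 8.34, 8.46, 8.71 and 8.81 in the instilled rats, against 8.99, 9.13, 9.18 and 9.18 in the water rats. These groups did not overlap either, and the difference was -0.54 ± 0.19 (SE, n = 4 each, limma adjusted p = 0.027). The Pla2g4a call was lost without any 1 of 4 rats, with limma adjusted p of 0.070 without instilled rat 369, 0.11 without instilled rat 374, 0.063 without water rat 354 and 0.062 without water rat 355. It was also lost after cyclic loess (adjusted p = 0.076) and quantile normalization (adjusted p = 0.055). Ptges averaged 9.87 ± 0.48 in the instilled rats and 9.50 ± 0.09 in the water rats (SD; difference 0.38, adjusted p = 0.21), with instilled rat 372 highest at 10.57. Set against the air rats of the same array set in place of water, Ptges differed by 0.77 (adjusted p = 0.0030) and Pla2g4a by -0.35 (adjusted p = 0.15). These values include that of instilling liquid. The water rats stood above those air rats by 0.39 in Ptges and by 0.19 in Pla2g4a, neither past the test.

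Ptgs1 (difference -0.28), Ptger4 (0.20) and Ptgds (-0.08) did not pass the test after instillation. Of the 10 member probe sets 1 rose and 3 fell, where 9.83% of all probe sets rose and 12.4% fell. Groups did not overlap for 4 of them, against 18.7% of all. All 6 neutrophil markers passed upward, with a median log2 change of 2.48 and summed signals of 8073 to 15530 in the instilled rats, against 1463 to 2465 in the water rats. Macrophage and monocyte markers passed upward for 3 of 7 (Cd68, Lyz2 and Itgam), while Csf1r, Cd14, Mrc1 and Cd163 did not pass. Of 4 tuft cell markers 2 passed downward (Avil and Gnat3). Col1a1 of stroma and vessels (7 markers measured), Foxj1 of ciliated cells (3) and Hdc of mast cells (7) fell by 0.81, 0.66 and 0.65. Cldn4 of general epithelium (5) rose by 0.75. Each was the only marker of its list called, and 1 of 7 lies near the 12.4% of all probe sets that fell. Single Foxj1 values of the groups overlapped. Summed signals of stroma and vessels lay apart, at 14030 to 15180 in the instilled rats, against 17570 to 24630 in the water rats. The collagens Col1a2, Col1a1 and Col3a1 were the brightest of these markers over all arrays (13.21, 13.14 and 11.98). The vessel markers Vwf and Pecam1 averaged 7.23 and 6.49, so that sum says little of vessels. Sums of ciliated cells lay apart too (1591 to 1835 in the instilled rats, against 2217 to 3011 in the water rats). Mast cell sums were 344 to 364.2 in the instilled rats, against 442.1 to 544.7 in the water rats. Hdc was the brightest mast cell marker over all arrays (8.35, the others at most 5.06), so that sum mostly repeats its fall. Macrophage sums lay apart as well, at 9846 to 14920 in the instilled rats, against 6627 to 7698 in the water rats. Lyz2, with a mean of 13.03 in the instilled rats, was again the brightest of the macrophage markers and weighs most in that sum. Sums of the other 5 cell types overlapped. Summed olfactory marker signal was 3806 to 6664 in the instilled rats and 2871 to 10920 in the water rats. The part of these cells in the member results was not tested.

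**Figure D2:**
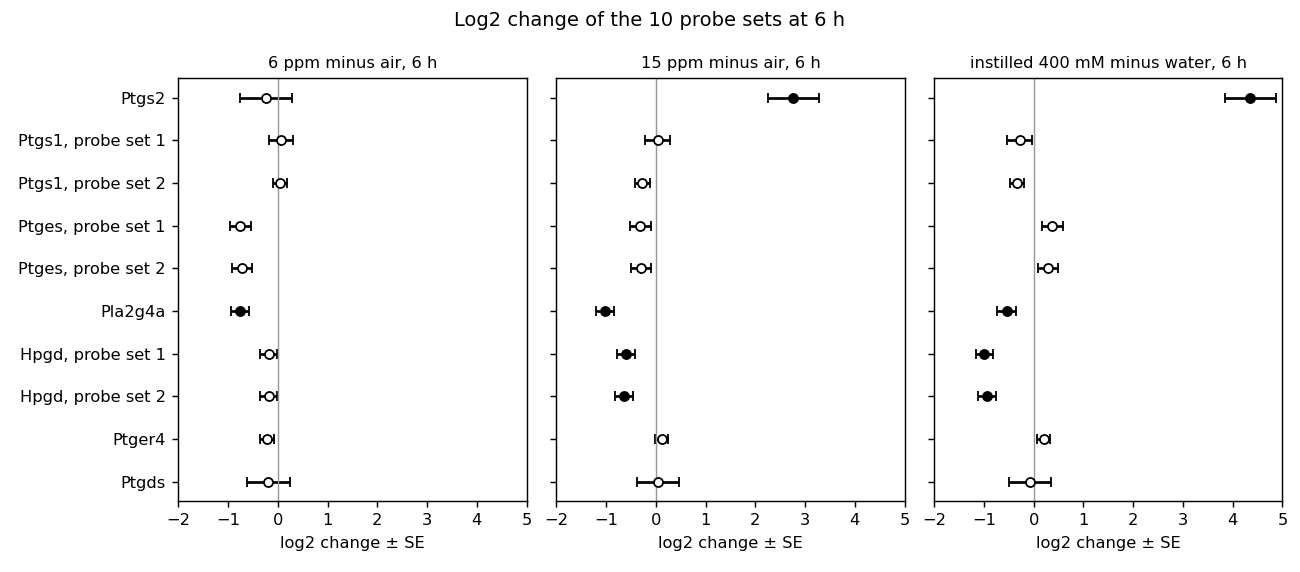
Log2 change with its SE of the 10 member probe sets at 6 h for 6 ppm minus air, 15 ppm minus air and instilled formaldehyde minus water; filled points passed an adjusted p of 0.05. Ptgs2 stands at 2.76 for 15 ppm and 4.36 for instillation and at -0.24 for 6 ppm, while Pla2g4a is below 0 and filled in all 3 panels.

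The size of the response by route was set side by side. The Ptgs2 change was 1.59 larger after instillation than after 15 ppm, but this difference did not pass (SE 0.73, limma adjusted p = 0.43), and its 95% interval ran from 0.14 to 3.04. No member probe set passed in that test of limma, and 0.879% of all probe sets did. An unadjusted p under 0.05 was had by 3 of 10 member probe sets and by 3030 of all 31042. Pla2g4a changed by 0.48 less and Hpgd by 0.40 more after instillation, with adjusted p of 0.59 and 0.68. Water itself moved no member past the test relative to air: Ptgs2 averaged 5.97 ± 0.30 after water and 5.91 ± 0.72 in air (SD, n = 4 each). The controls differed in tissue makeup, with summed olfactory signal of 2871 to 10920 after water and 13490 to 23280 in air. Secretory sums were also lower after water without overlap, and those of general epithelium, neutrophils and tuft cells higher. The part of this in the route values was not tested. In limma 2 of 10 member probe sets had an unadjusted p under 0.05 for water, as had 3216 of all 31042, and 0.0129% of all probe sets passed.

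**Figure D3:**
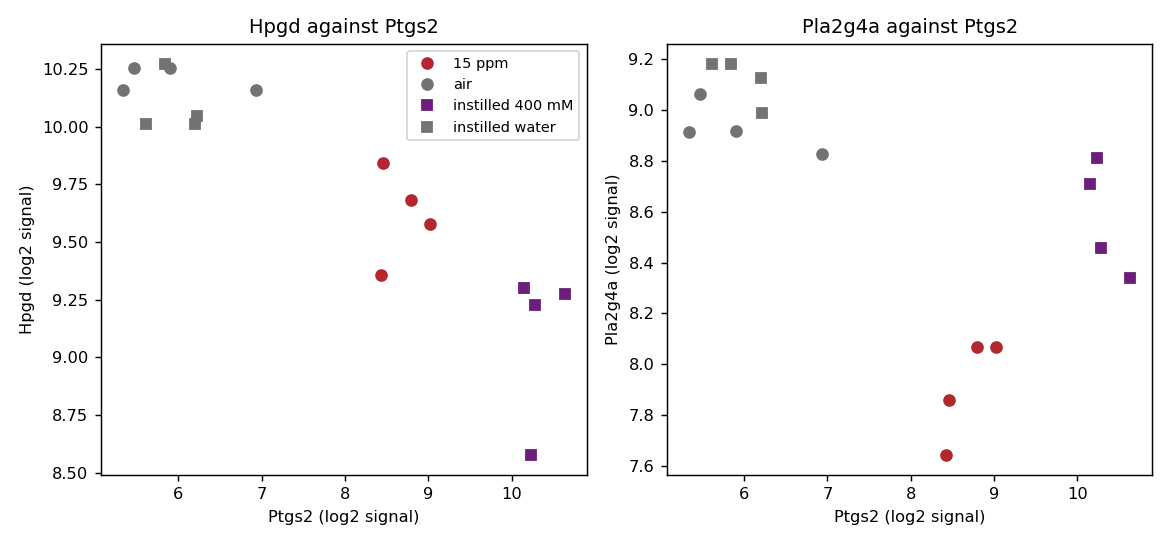
Hpgd (left) and Pla2g4a (right) against Ptgs2 in the 16 rats of array set 2, all as log2 signal, each point a rat. The instilled rats lie lowest for Hpgd (8.58 to 9.30), and the 15 ppm rats lie lowest for Pla2g4a (7.64 to 8.07).

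Over the 24 group means Ptgs2 and Hpgd correlated at -0.79, and their deviations within groups correlated at -0.07 over the 98 rats. The instilled and 15 ppm groups had the highest Ptgs2 means (10.32 and 8.68) and low Hpgd means (9.09 and 9.61). The correlation without these groups is not given here, so how far the -0.79 rests on them is not shown. The order of exposed groups differed between the genes that fell: Hpgd was lowest after instillation and Pla2g4a lowest after 15 ppm. Ptges and Pla2g4a, at the end and the head of the path to prostaglandin E2, correlated at 0.66 over group means and at 0.50 within groups. These correlations are over arrays that share normalization and tissue makeup.

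At 6 ppm and 6 h Pla2g4a was the member called, and Ptgs2 did not pass. After 6 h Ptgs2 measured 5.80, 6.22, 6.26 and 7.22 in the 6 ppm rats, against 6.27, 6.29, 6.76 and 7.13 in the air rats of array set 1. The groups overlapped throughout, and the difference was -0.24 ± 0.52 (SE, n = 4 each, limma adjusted p = 0.88). Pla2g4a measured 7.62, 8.13, 8.25 and 8.28 in the 6 ppm rats, against 8.62, 8.80, 8.85 and 9.05 in the air rats. Every exposed rat lay lower, and Pla2g4a fell by 0.76 ± 0.19 (SE, limma adjusted p = 0.047). Across the genome 0.113% of probe sets rose and 0.132% fell, and Pla2g4a was the 1 member of 10 called.

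The Pla2g4a call at 6 ppm rested on 7 of the 8 rats. It was kept without 6 ppm rat 283 (adjusted p = 0.030), and the limma adjusted p was 0.28 without 6 ppm rat 284, 0.060 without 286, 0.069 without 287, and 0.20, 0.089, 0.10 and 0.12 without air rats 49, 50, 52 and 53. It was lost under 4 other settings as well, with adjusted p of 0.062 after cyclic loess, 0.086 after quantile normalization, 0.20 with the RNA integrity number as covariate and 0.19 from the arrays of that time alone. The difference itself stayed between -0.83 and -0.61 when a rat was left out. RNA integrity numbers were 7.7 to 7.8 in the 6 ppm rats with a number and 7.8 to 8.3 in the air rats.

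Ptges was lower at 6 h of 6 ppm without passing the test. It measured 8.02, 8.14, 8.55 and 8.63 in the 6 ppm rats, against 8.93, 9.12, 9.15 and 9.18 in the air rats, so the groups did not overlap. The difference was -0.76 ± 0.21 (SE, n = 4 each, limma adjusted p = 0.097), and the other probe set gave -0.72 ± 0.20 (adjusted p = 0.10). Groups did not overlap for 3 of the 10 member probe sets, both of Ptges and that of Pla2g4a, against 8.82% of all probe sets. Hpgd differed by -0.19 (adjusted p = 0.70).

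The Ptgs2 change differed between the doses at 6 h. It was 3.002 ± 0.73 larger at 15 ppm than at 6 ppm (SE, limma adjusted p = 0.015), with a 95% interval from 1.55 to 4.45. Of the 10 member probe sets it was the 1 called, where 1.19% of all probe sets were. Without 6 ppm rat 284 the limma adjusted p was 0.052, and with the RNA integrity number as covariate it was 0.16 (difference 2.55). The doses lie in different array sets, each set against its own air rats. For Pla2g4a the 15 ppm and 6 ppm changes differed by -0.26 (95% interval from -0.78 to 0.27).

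The air rats of the array sets at 6 h were compared because the doses were split between them. Ptgs2 averaged 5.91 ± 0.72 in set 2 and 6.61 ± 0.41 in set 1 (SD, n = 4 each; difference -0.70, limma adjusted p = 0.53). Set against the air rats of set 1, the 15 ppm rats were 2.06 higher in Ptgs2 (adjusted p = 0.0027), 0.92 lower in Pla2g4a, and 0.57 lower in Hpgd (adjusted p = 0.019). The dimmer Ptgs1 probe set was 0.56 higher in set 2 (adjusted p = 0.013), and the main one 0.34 higher (adjusted p = 0.53). The dimmer one did not pass without set 2 rat 323. Ptgds averaged 5.82 ± 0.25 in set 2 and 6.83 ± 0.51 in set 1, with no overlap (adjusted p = 0.18). These were the 2 member probe sets of 10 whose groups did not overlap, against 17.6% of all, and 4.7% of all probe sets passed between the sets.

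From 24 h on the mean of Ptgs2 at 6 ppm was above that in air at each time, but no single time passed the test. At 24 h it measured 6.98, 7.12, 7.32 and 7.39 in the 6 ppm rats, against 5.64, 6.30, 6.30 and 6.96 in the air rats. The groups just missed each other (4.41% of all probe sets had groups that did not overlap at that time), and the difference was 0.90 ± 0.52 (SE, n = 4 each, limma adjusted p = 0.73). At 5 days it was 0.13 (adjusted p = 0.98).

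At 8 days Ptgs2 measured 6.99, 8.74, 9.07 and 9.11 in the 6 ppm rats, against 5.87, 6.47, 6.54, 6.62 and 7.68 in the air rats. Of the 4 exposed rats 3 lay above every air rat, and rat 299 lay within them. The difference of 1.84 ± 0.49 (SE, n = 4 and 5) was 3.59-fold and the largest of the 5 times, with an unadjusted limma p of 0.00032, an adjusted p of 0.26 and an exact permutation p of 0.024. Without rat 299 it was 2.34 and passed (limma adjusted p = 0.044). Summed neutrophil marker signal was 855.8 in rat 299 and 3070, 3563 and 3646 in the other 6 ppm rats, against 1403, 2105, 2172, 2846 and 3006 in the air rats. Other groups went either way, and the rats named are examples. At 5 days 6 ppm rat 293 had a neutrophil signal of 11110 with Ptgs2 at 7.28, within its group. At 24 h 2 ppm rat 212 had 9152 with Ptgs2 at 5.75, the lowest of its group. By contrast, 0.7 ppm rat 139 at 5 days (4900, Ptgs2 at 7.88) was the highest of its group in both. So was 2 ppm rat 207 at 6 h (3840, Ptgs2 at 8.10). No neutrophil marker passed in limma at 8 days (0 of 6, and 0 with an unadjusted p under 0.05), and their part in the Ptgs2 values was not tested.

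At 19 days Ptgs2 measured 7.11, 7.80, 8.11 and 8.26 in the 6 ppm rats, against 6.02, 6.42, 6.74 and 8.13 in the air rats. Air rat 77 alone lay among the exposed ones, and the difference was 0.99 ± 0.52 (SE, n = 4 each, limma adjusted p = 0.44). Ptgs1 went the other way at 19 days, at 8.15, 8.30, 8.75 and 8.76 in the 6 ppm rats, against 9.26, 9.26, 9.29 and 9.43 in the air rats. The Ptgs1 groups did not overlap and the difference was -0.82 ± 0.25 (SE, limma adjusted p = 0.11). The dimmer Ptgs1 probe set differed by -0.16. Hpgd was lower by 0.39 without overlap on either probe set (adjusted p = 0.36 and 0.35), so that 3 member probe sets of 10 lay apart, against 6.77% of all.

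**Figure D4:**
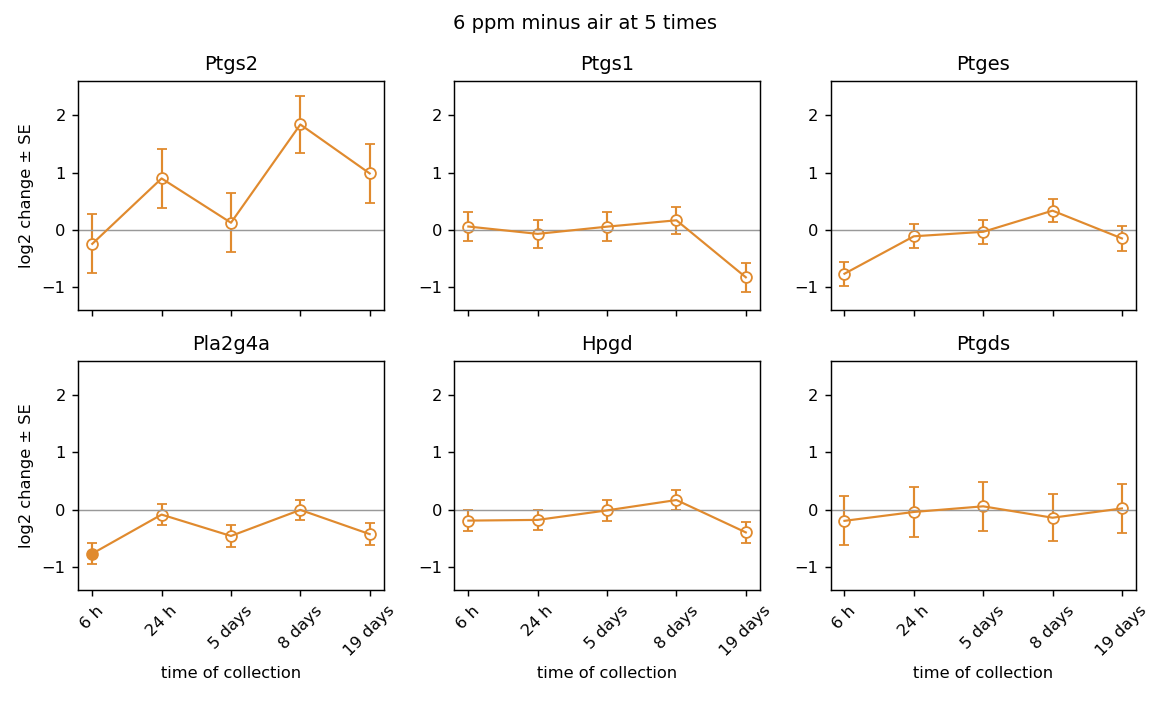
Difference between 6 ppm and air rats (log2, with the SE) at 5 times of collection for 6 of the 7 genes; the filled point passed an adjusted p of 0.05. Ptgs2 is above 0 from 24 h on, with its peak of 1.84 at 8 days, and Pla2g4a is at -0.76 at 6 h and near 0 at 8 days.

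Taken as the mean over the 5 times, the 6 ppm effect passed for 2 genes. Ptgs2 rose by 0.72 ± 0.23 (SE, limma adjusted p = 0.040) and Pla2g4a fell by 0.35 ± 0.08 (SE, limma adjusted p = 0.0055). Thus 1 of 10 member probe sets rose and 1 fell, where 2.82% of all probe sets rose and 3.54% fell. The Pla2g4a call was kept when any 1 of the 41 rats was left out. The Ptgs2 call was lost without any of 18 of them, with limma adjusted p between 0.053 and 0.078: 6 ppm rats 283, 290, 293, 296, 297, 298, 300, 301, 310 and 312 and air rats 49, 50, 54, 60, 61, 68, 73 and 75. Its adjusted p was 0.070 with the RNA integrity number as covariate and 0.054 from array set 1 alone.

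Whether the 6 ppm effect differed between times was asked with an F-test in limma. No member probe set passed, and 0.0129% of all probe sets did. An unadjusted p under 0.05 was had by 5 of 10 member probe sets (the smallest, 0.0089, for Ptges). They were those of Ptgs2 and Pla2g4a, the main one of Ptgs1 and both of Ptges. How many of all probe sets reached that unadjusted p was not counted for the F-tests. The count of 5 therefore has no share to be judged against and is not read as an effect of time. At the single times beyond 6 h no member passed in limma either. At an unadjusted p under 0.05 stood 0 of 10 member probe sets at 24 h, 1 at 5 days, 1 at 8 days and 4 at 19 days. Of all 31042 probe sets 2350, 2248, 1907 and 3678 stood there at these times. The share of all probe sets called was 0.00322% at 24 h, 0.119% at 5 days, 0.029% at 8 days and 0.412% at 19 days. In the air rats alone no member passed across the 5 times, 1 of 10 (the main Ptgs1 probe set, adjusted p = 0.091) had an unadjusted p under 0.05, and 11.4% of all probe sets passed.

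At 0.7 and 2 ppm no member probe set passed in limma at any time. At 0.7 ppm the Ptgs2 difference from air lay between -0.30 and 0.27 over the 5 times and was above 0 in 2 of them, with a mean of -0.01 ± 0.23 (SE). At 2 ppm it lay between -0.51 and 0.63 and was above 0 in 4 of 5, with a mean of 0.11 ± 0.23. At 0.7 ppm an unadjusted p under 0.05 was reached by 1 of 10 member probe sets at 8 days and by 0 at the other 4 times. Of all 31042 probe sets 409, 1889, 762, 1021 and 818 reached it at 6 h, 24 h, 5, 8 and 19 days. The share of all probe sets called at 0.7 ppm was 0.00644% at 5 days and 0% at the other times and for the mean.

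The mean differences over the 5 times were also set side by side by dose. At 0.7, 2 and 6 ppm they were 0.07, -0.13 and -0.14 for Ptges, -0.01, -0.04 and -0.12 for Hpgd and 0.05, 0.01 and -0.09 for Ptger4. Those of Ptgs1 were -0.014, -0.0009 and -0.12 and those of Ptgds -0.05, 0.28 and -0.06. None of these passed the test. For Pla2g4a the difference from air was -0.12 ± 0.08 at 0.7 ppm, -0.20 ± 0.08 at 2 ppm and -0.35 ± 0.08 at 6 ppm (SE), and of these the 6 ppm value passed (limma adjusted p = 1.00, 0.33 and 0.0055). The 3 means share the same air rats. At 2 ppm an unadjusted p under 0.05 was reached by 1 of 10 member probe sets at 6 h (Pla2g4a), 0 at 24 h, 0 at 5 days, 1 at 8 days (the dimmer of Hpgd) and 5 at 19 days. For the mean over times it was 1 (Pla2g4a). Of all 31042 probe sets 1742, 1751, 2769, 1317 and 2682 reached that unadjusted p at those times, and 3328 for the mean. The share of all probe sets called at 2 ppm was 0.00322% at 6 h, 0% at 24 h, 0.0741% at 5 days, 0% at 8 days, 0% at 19 days and 0.361% for the mean.

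The 5 probe sets of 2 ppm at 19 days belonged to 4 genes. Ptgds, whose product prostaglandin D2 is made from the same precursor, averaged 7.59 ± 1.14 in the 2 ppm rats and 6.71 ± 0.38 in the air rats (SD, n = 4 each; limma adjusted p = 0.57), the highest group mean of that gene. Ptges averaged 8.50 ± 0.51 in the 2 ppm rats and 8.95 ± 0.23 in the air rats, and Pla2g4a 8.00 ± 0.46 in the 2 ppm rats and 8.44 ± 0.21 in the air rats. Ptger4, the receptor, averaged 4.39 ± 0.18 in the 2 ppm rats and 4.74 ± 0.30 in the air rats. All 4 genes overlapped with air.

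Placed in order of their means over all 24 groups, the Ptgs2 levels fell into a short top and a long run below. The instilled group came first (10.32 ± 0.21), followed by 15 ppm (8.68 ± 0.29), 6 ppm at 8 days (8.48 ± 1.01) and 6 ppm at 19 days (7.82 ± 0.51; SD, n = 4 each). Of the 23 steps between neighbours in that order 1 had groups that did not overlap, that between the instilled and the 15 ppm rats. The lowest were the water rats (5.97 ± 0.30) and the air rats of set 2 (5.91 ± 0.72). For Hpgd the instilled group was the lowest of 24 (9.09 ± 0.35), and the 1 step without overlap stood beside it. For the other 5 genes every group overlapped with its neighbours in the order. Group means ran from 8.49 to 9.69 for Ptgs1, from 8.34 to 9.87 for Ptges, from 7.91 to 9.12 for Pla2g4a, from 4.32 to 4.81 for Ptger4 and from 5.68 to 7.59 for Ptgds.

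The genes whose 24 group means were most like those of Ptgs2, out of 14216 others, were Plaur, the urokinase receptor (r = 0.92), Snx18, a sorting nexin (0.90), Nabp1 (0.88), Zfand2a (0.88), Fosl1, a subunit of the AP-1 factor (0.88), Pvr, a cell adhesion molecule (0.87), Cbr1 (0.87) and Gch1, which makes a cofactor of nitric oxide synthase (0.87). Without the 15 ppm and instilled groups the 8 correlations were 0.50 to 0.73 over 22 groups. Within groups they ran from -0.13 for Cbr1 to 0.47 for Plaur over 98 rats. The least alike were Uvrag (-0.89), the taurine transporter Slc6a6 (-0.85), Sec24d (-0.85) and Tasp1 (-0.85). The genes were picked for these values, which are a description.

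Around the members, the rest of the pathway was read from 6 lists with 53 measured genes. Their counts stand beside 4.32% of all probe sets that rose and 4.17% that fell at 15 ppm, and 9.83% that rose and 12.4% that fell after instillation. An unadjusted p under 0.05 at 15 ppm was reached by 6274 of all 31042 probe sets. After instillation, counts such as 1 of 10 or 1 of 5 lie near those shares. Of 10 measured phospholipases A2 and their brake Anxa1, 0 passed in limma at 15 ppm (3 with an unadjusted p under 0.05) and 1 fell after instillation, Pla2g6 by 0.47. Among 8 terminal synthases 2 rose at 15 ppm and 2 after instillation. Cbr1, a carbonyl reductase that turns prostaglandin E2 into F2 alpha and reduces many other carbonyls, measured 11.15, 11.20, 11.49 and 11.55 in the 15 ppm rats, against 10.30, 10.40, 10.54 and 10.55 in the air rats. It rose by 0.90 at 15 ppm (adjusted p = 0.0010) and by 1.80 after instillation (adjusted p = 2.1e-11).

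Akr1b1, an aldose reductase with prostaglandin F synthase activity, rose by 0.47 at 15 ppm (limma adjusted p = 0.00053), and by 0.28 against the air rats of set 1 (adjusted p = 0.044). Hpgds, the prostaglandin D synthase of blood cells, rose by 1.41 after instillation (adjusted p = 0.010), at 5.77, 6.25, 7.49 and 7.71 in the instilled rats, against 5.12, 5.32, 5.51 and 5.65 in the water rats. In the transport and catabolism list of 5 genes, 2 fell at 15 ppm (Abcc4 and Cbr4) and 1 after instillation (Abcc4). Abcc4, a pump that exports prostaglandins, fell by 0.75 at 15 ppm (adjusted p = 0.011; -0.38 and adjusted p = 0.22 against the air rats of set 1) and by 0.98 after instillation (adjusted p = 0.00015).

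Of 6 receptors 0 passed in limma at 15 ppm, none of them with an unadjusted p under 0.05 (0 of 6). After instillation 2 rose: Ptger2, like Ptger4 a receptor for prostaglandin E2, by 0.84 (limma adjusted p = 2.8e-05) and Ptgfr by 0.38 (adjusted p = 0.013). Single values of the groups overlapped for Ptger2 and for Ptgfr (exact permutation p = 0.057 each). The highest group mean of Ptgfr was 4.95, a low signal. In the leukotriene branch, which uses the same arachidonic acid, 0 of 11 passed at 15 ppm (2 with an unadjusted p under 0.05). After instillation Alox5ap rose by 1.03 and the leukotriene B4 receptor Ltb4r by 0.69, while Alox5 fell by 0.80 and Lta4h by 0.31. Single Lta4h values of the groups overlapped (exact permutation p = 0.057). For the 6 ppm mean over 5 times 1 synthase, Ptges3, rose by 0.07 (limma adjusted p = 0.046). In the leukotriene branch 1 gene, the receptor Cysltr1, rose by 0.12 (limma adjusted p = 0.039). Of all probe sets 2.82% rose and 3.54% fell in that comparison. Cysltr1 averaged 3.51 over all arrays with a highest group mean of 3.67, a low signal.

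The last list held inducers of Ptgs2 and factors of its mRNA decay. The neutrophil markers above were called in the same comparisons, and their part in these values was not tested. Of 13 genes 3 rose at 15 ppm against the air rats of set 2: the transcription factor Cebpd by 1.18, the decay factor Zfp36 by 0.94 and Crem by 0.65. Against the air rats of set 1 none of the 3 passed in limma, and the sign turned for Cebpd (-0.11, adjusted p = 0.78) and Zfp36 (-0.44, adjusted p = 0.23) but not for Crem (0.17, adjusted p = 0.61). The median over the list was 0.59 against set 2, against 0.01 over all probe sets. After instillation 8 rose and Elavl1, an RNA stabiliser, fell by 0.81 (limma adjusted p = 9.5e-06). Elavl1 measured 8.77, 8.94, 10.31 and 10.35 in the instilled rats, against 10.14, 10.42, 10.46 and 10.57 in the water rats. The groups overlapped, 2 instilled rats were low and 2 were among the water rats, and the exact permutation p was 0.14. The cytokines Il1a, Il1b, Il6 and Tnf rose by 4.49, 4.37, 3.75 and 3.01, and the NF-kB inhibitor Nfkbia by 1.85. Il1b differed by 1.75 at 15 ppm without passing the test. Between the air rats at 6 h, Cebpd, Zfp36 and Nfkbia were lower in set 2 than in set 1 by 1.28, 1.38 and 0.86, each past the test.

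**Figure D5:**
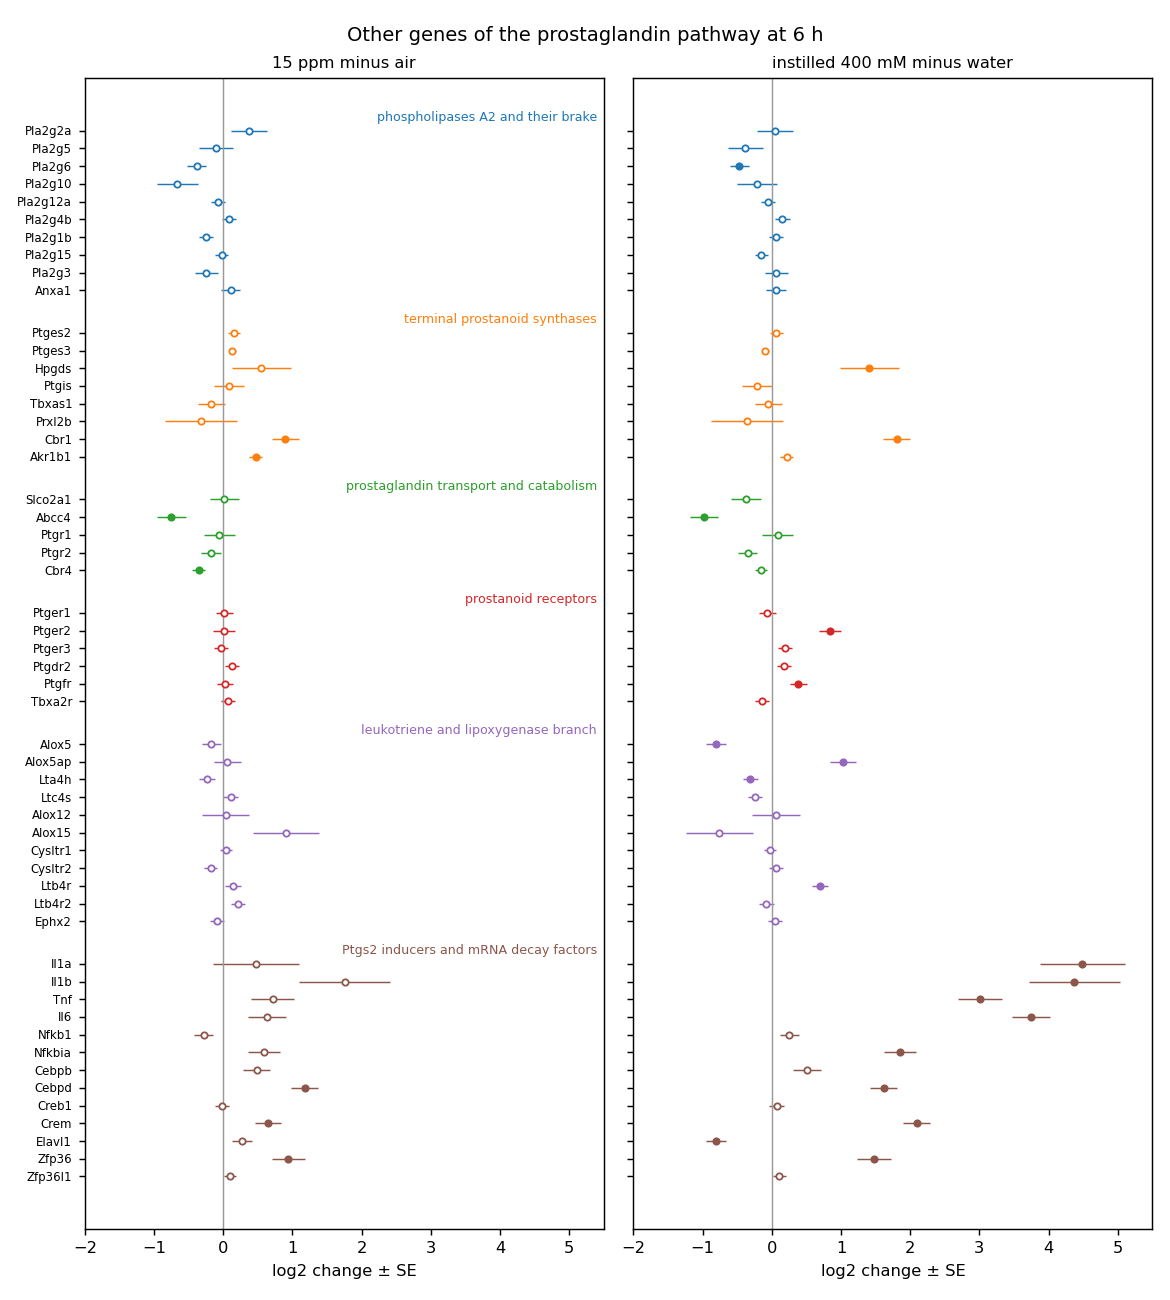
Log2 change with its SE of 53 other genes of the pathway for 15 ppm minus air (left) and instilled formaldehyde minus water (right), by list; filled points passed an adjusted p of 0.05. Cbr1 is filled above 0 in both panels, and Il1a, Il1b, Tnf and Il6 are filled for instillation alone, at 3.01 to 4.49.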

How the data were processed

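Messenger RNA of nasal epithelial cells was measured on Affymetrix Rat230_2 arrays, 1 per rat, per the labels. The deposited values are log2 signals, 1 per probe set and array, from 2.67 to 14.83, with array medians between 5.93 and 6.07. For the summarising and normalizing steps of the authors, a method was not given in the sources used here. Of 31099 deposited probe sets 57 controls were left out. Symbols came from the array annotation, updated by gene identifier to RefSeq (GRCr8): 20826 probe sets had 1 symbol, 436 several and 9780 none. RefSeq windows matched 7 of 7 members.

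Groups followed the labels; the treatment field of the 0.7 ppm rats at 8 days reads 0.07 ppm, and 0.7 was used. R 4.3.3 with limma 3.58.1 fitted 1 coefficient per group to 98 arrays (74 residual degrees of freedom), with moderated two-sided tests and Benjamini-Hochberg adjustment over 31042 probe sets per comparison, called at an adjusted p under 0.05, 26 comparisons in all. The method was tested on simulated data. Permutation tests were exact and two-sided. No array was left out; precision is limited by the number of rats, as array signals hold no counts. No paired analysis was possible because each rat gave 1 array.

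The members and lists were chosen with earlier results of these data known. Of 116 list genes 106 were measured. Named were all member probe sets, pathway genes called against a control (at most 4 per list and comparison, by size), and the 8 genes most and 4 least like Ptgs2. Beyond that rule, more than 4 of the instillation inducers, Il1b at 15 ppm, and the marker genes were named after their values were seen. Alternatives were 2 other normalizations, a filter on probe sets under a group mean of 6, a variance trend with robust prior, the RNA integrity number as covariate, arrays of the same set and time only, other controls, other probe sets and each rat left out. The air rats of set 1 as control for the pathway genes were an alternative chosen after seeing the data.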

Additional observations from a re-analysis of the deposited data

Results flagged for a closer look

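The Ptgs2 change at 6 h was 3.002 larger on the log2 scale at 15 ppm than at 6 ppm in the test of the difference itself.

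In 168 combinations of gene and group, 8 had a rat far from the others of its group, where chance gives about 1 in 20, or 8.4. Pla2g4a was 8.15 in rat 156 of 0.7 ppm at 19 days, with the others at 8.33 or more. Hpgd was 10.14 in rat 140 of 0.7 ppm at 5 days, with the others at 9.80 or less, 9.14 in rat 215 of 2 ppm at 5 days, with the others at 9.80 or more, 8.58 in instilled rat 372, with the others at 9.23 or more, and 10.27 in water rat 355, with the others at 10.05 or less. Ptger4 was 4.10 in rat 308 of 6 ppm at 19 days, 4.34 in rat 292 of 6 ppm at 24 h and 4.68 in air rat 57 at 24 h.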

How the results depend on the processing

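No value called for a member changed sign under any alternative run. At 15 ppm and after instillation the count of member probe sets called stayed within 1.5 times under all alternatives other than leaving out 1 rat, and so did the counts over all probe sets except 4763 called at 15 ppm with the air rats of set 1 as control. At 6 ppm and 6 h, 0 members were called after cyclic loess, after quantile normalization, with the RNA integrity number as covariate and from arrays of that set and time only; over all probe sets the last 2 gave 23 and 3 calls in place of 76. With that covariate 0 members were called for the 15 ppm minus 6 ppm difference and 0 between the air rats of the array sets, and for the 6 ppm mean over times 1 member and 1027 probe sets were. That mean gave 1 member from array set 1 alone, and the filter on low values left 0 members between the air rats of the sets. Of 7 pathway genes called at 15 ppm, 4 were not called against the air rats of set 1, an alternative added after seeing the data: Cebpd (-0.11) and Zfp36 (-0.44) turned sign, and Abcc4 (-0.38) and Crem (0.17) kept theirs. The cause of these moves was not tested, but 85 arrays have the number and fewer arrays enter the fits by set and time.

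With 1 rat left out, the members called ranged from 2 to 4 at 15 ppm, from 3 to 5 after instillation, from 0 to 2 at 6 ppm and 6 h, from 0 to 1 at 6 ppm and 8 days, from 1 to 2 for the 6 ppm mean, from 0 to 1 for 15 ppm minus 6 ppm and from 0 to 1 between the air rats of the sets. Over all probe sets the counts ranged from 1781 to 2549 at 15 ppm, from 5138 to 7061 after instillation, from 15 to 197 at 6 ppm and 6 h and from 1502 to 2340 for the 6 ppm mean. The other comparisons kept 0 members throughout. No paired analysis was possible because each rat gave 1 array. Signals of Ptger4 and of the dimmer Ptgs1 probe set were low, and the deposited values hold no detection calls.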
